A study of Rattus norvegicus with 12 samples.

Results

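Expression of 34 cell cycle and DNA replication genes was examined in brain tissue of Sprague-Dawley rats after middle cerebral artery occlusion and reperfusion (MCAO/R, in which a large artery of the brain is blocked and then reopened). The genes were taken by name from a list, and all 34 were among the 18800 gene symbols of the deposited count table. Every one had counts, and all 34 passed the filter on low counts, as did 15487 symbols in all. The labels describe 3 groups. Control rats were restrained and received no electroacupuncture, and their columns in the table are named as sham-operated. Model rats had MCAO/R and the same restraint. Electroacupuncture rats had MCAO/R, restraint and current through needles at the Tianfu, Chize, Kongzui and Taiyuan acupoints of the Lung Meridian. Restraint was thus common to all groups. The sources used here do not give the animals' age, the time after reperfusion, or the brain region and side. The study's title names synaptic plasticity as its subject.

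The table held 11 columns for the 12 labelled samples. In 3 pairs of columns within a group, the difference in counts was close to sampling noise (1.34 to 1.40 times the sampling variance, against 4.74 to 26.5 times in the other 12 pairs within a group), and each pair was summed and counted as 1 sample. This left 3 control samples (A to C), 2 model samples (A and B) and 3 electroacupuncture samples (A to C), with total counts from 9335913 to 23835724. Nothing in the sources states that samples came from separate animals, so the spread between samples may be technical in part. Model A, model B and electroacupuncture A stood apart from the other 5 samples in hippocampal markers. The summed level of 8 hippocampal genes, of which Tdo2 was at 0 in 4 samples, was 137, 294 and 164 counts scaled to library size (CPM) in these samples and 557 to 777 CPM in the others. Neuronal markers (7 genes, none at 0 in any sample) summed to 2821 CPM in electroacupuncture A and 4367 CPM in model A, against 5961 to 8426 CPM elsewhere. Gad1, of the same 7 genes, went the other way, at 319 CPM in each of these samples against 115 to 166 CPM elsewhere. Other regional genes, chosen after their values were seen, set electroacupuncture A, and to a lesser degree model A, apart from model B as well. Ppp1r1b, a gene of striatal neurons, stood at 2066 CPM in electroacupuncture A and 218 CPM in model A, and between 94.2 and 125 CPM elsewhere. Foxj1, a gene of ciliated ependymal cells, stood at 54.2 and 17.5 CPM, against 2.41 to 6.80 CPM. It was the only 1 of 7 tested genes of choroid plexus and ependyma with electroacupuncture A highest and model A second. The 8 listed genes of that kind summed to 109 and 38.3 CPM in these samples. Control C stood at 1375 CPM, of which Ttr alone made up 1344 CPM, and the remaining samples at 11.4 to 102 CPM. Fewer cells of a type and less RNA per cell cannot be told apart in such bulk tissue. The part of tissue composition in any result given here was not tested.

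Most cells of the adult brain have left the cell cycle. Division continues among progenitors of the subventricular zone and dentate gyrus and among oligodendrocyte precursors, and microglia can divide after injury. A cell commits to division when D and E cyclins activate their kinases. E2F transcription factors are then released and switch on genes for DNA synthesis, among them the Mcm2 to Mcm7 helicase that unwinds DNA. Genes for mitosis are switched on later, largely through CCAAT boxes, bound by the factor NF-Y, and through cell cycle homology regions, bound by the DREAM and MMB-FOXM1 complexes. Some D cyclins are also made in cells that do not divide.

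Promoter sequences are shown for 7 members to set these motifs beside their levels. Top2a, Mki67, Cdk1, Prc1, Mcm5 and Mcm6 had their highest values in the same pair of samples, and Cenpf did not. The sequences are from RefSeq, build GRCr8, and run from 250 bases before to 50 bases after the annotated start, 5′ to 3′ on the gene's strand. Capitals mark CCAAT boxes (CCAAT), cell cycle homology regions (TTTGAA or TTCGAA) and E2F sites (TTTGGCGC, TTTCCCGC, TTTCGCGC or TTTGCCGC), each searched on both strands. Matches that overlap run together in capitals, as in Mki67, Mcm5 and Mcm6.
Top2a, chr10:84473044-84473343, minus strand: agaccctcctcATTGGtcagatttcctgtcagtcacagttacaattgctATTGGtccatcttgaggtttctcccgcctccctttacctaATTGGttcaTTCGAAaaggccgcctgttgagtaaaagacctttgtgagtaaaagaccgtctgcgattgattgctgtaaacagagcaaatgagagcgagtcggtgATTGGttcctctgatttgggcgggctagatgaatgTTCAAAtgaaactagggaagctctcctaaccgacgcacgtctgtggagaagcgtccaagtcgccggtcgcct
Mki67, chr1:199952544-199952843, minus strand: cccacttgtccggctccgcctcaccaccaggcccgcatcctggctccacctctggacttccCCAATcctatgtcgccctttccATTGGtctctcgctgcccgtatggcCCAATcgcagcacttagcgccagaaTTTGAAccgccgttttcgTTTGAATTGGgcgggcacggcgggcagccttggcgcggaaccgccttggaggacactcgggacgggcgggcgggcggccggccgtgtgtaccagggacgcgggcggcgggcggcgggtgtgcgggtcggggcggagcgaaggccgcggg
Cdk1, chr20:19265043-19265342, plus strand: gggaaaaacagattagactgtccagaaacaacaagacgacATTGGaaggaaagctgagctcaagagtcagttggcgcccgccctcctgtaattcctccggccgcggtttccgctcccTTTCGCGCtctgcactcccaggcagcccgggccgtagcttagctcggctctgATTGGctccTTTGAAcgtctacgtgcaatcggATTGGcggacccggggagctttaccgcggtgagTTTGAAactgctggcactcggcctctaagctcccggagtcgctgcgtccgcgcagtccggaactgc
Prc1, chr1:143659231-143659530, plus strand: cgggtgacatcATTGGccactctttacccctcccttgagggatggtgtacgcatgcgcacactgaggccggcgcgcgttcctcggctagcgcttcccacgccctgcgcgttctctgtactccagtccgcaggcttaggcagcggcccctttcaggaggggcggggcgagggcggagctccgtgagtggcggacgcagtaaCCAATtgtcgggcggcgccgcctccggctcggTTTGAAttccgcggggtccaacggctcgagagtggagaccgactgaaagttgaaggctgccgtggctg
Mcm5, chr19:13488563-13488862, plus strand: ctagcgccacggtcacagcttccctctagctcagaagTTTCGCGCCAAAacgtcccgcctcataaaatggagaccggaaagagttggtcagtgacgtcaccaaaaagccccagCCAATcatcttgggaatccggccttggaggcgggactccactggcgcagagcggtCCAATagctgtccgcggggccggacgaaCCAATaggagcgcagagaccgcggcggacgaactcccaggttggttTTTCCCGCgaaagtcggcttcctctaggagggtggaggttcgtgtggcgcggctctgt
Mcm6, chr13:42404303-42404602, minus strand: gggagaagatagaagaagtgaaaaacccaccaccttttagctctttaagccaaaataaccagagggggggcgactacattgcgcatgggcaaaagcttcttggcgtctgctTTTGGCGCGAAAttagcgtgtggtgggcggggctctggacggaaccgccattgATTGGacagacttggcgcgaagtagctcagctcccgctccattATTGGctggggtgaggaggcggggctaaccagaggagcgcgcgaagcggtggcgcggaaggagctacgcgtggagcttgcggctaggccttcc
Cenpf, chr13:103760837-103761136, minus strand: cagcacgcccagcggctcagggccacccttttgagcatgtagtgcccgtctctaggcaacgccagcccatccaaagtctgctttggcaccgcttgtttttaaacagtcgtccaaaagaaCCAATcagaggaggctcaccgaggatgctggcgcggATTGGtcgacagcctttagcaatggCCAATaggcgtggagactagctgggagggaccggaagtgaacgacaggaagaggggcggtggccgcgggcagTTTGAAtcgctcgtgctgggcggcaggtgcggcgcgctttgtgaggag

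Of the 34 members, 25 had a promoter in the table, and the first listed for each symbol was used. Shares of all promoters were taken over every listed entry. A CCAAT box lay in 19 of these 25 (76%), against 37.5% of all 33469 promoters. A cell cycle homology region lay in 15 of 25 (60%), against 19.7% of all promoters. The 15 members of G2, mitosis and mitotic exit held a homology region in 12 cases and an E2F site in 1 case, that of Cdk1. The 10 members of G1, S phase and replication held them in 3 and 6 cases. An E2F site was found in 2.14% of all promoters. The windows used for Aurka, Bub1 and Ccne1 had none of the 3 motifs, and other possible starts of these genes were not searched. Cenpf, whose levels followed another pattern, had 3 CCAAT boxes and a homology region, as many CCAAT boxes as Cdk1. These matches describe letters only and do not show that a factor was bound.

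The members' levels were ordered by sample more than by group. In 25 of 34 members the highest of the 8 samples was electroacupuncture A, as it was for 25% of all tested genes. In 23 members electroacupuncture A was highest and model A second, an order found in 10.1% of all tested genes. Against the controls, 29 members in electroacupuncture A and 28 in model A lay above every control sample (38.8% and 36.4% of all tested genes). The other samples differed from these. In model B, 8 members (23.5%) lay above every control and 12 (35.3%) below, near or under the shares of all tested genes (32.6% and 33.4%). In electroacupuncture B and C, 15 and 10 members lay above the controls (44.1% and 29.4%, against 27.1% and 25.2% of all tested genes). At least 3 times the control mean was reached by 17 members in electroacupuncture A (50% against 7.63% of all tested genes) and by 14 for model A (41.2% against 5.26%). In model B 1 member did so (2.94% against 3.63%), and in electroacupuncture B and C 0 did, as did 0.523% and 0.691% of all tested genes. The median member stood 1.77 above the control mean in electroacupuncture A on the log2 scale, 1.22 for model A, 0.02 for model B, and 0.26 and 0.12 in electroacupuncture B and C. The median of all tested genes lay within 0.01 of the control mean in every sample.

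**Figure D1:**
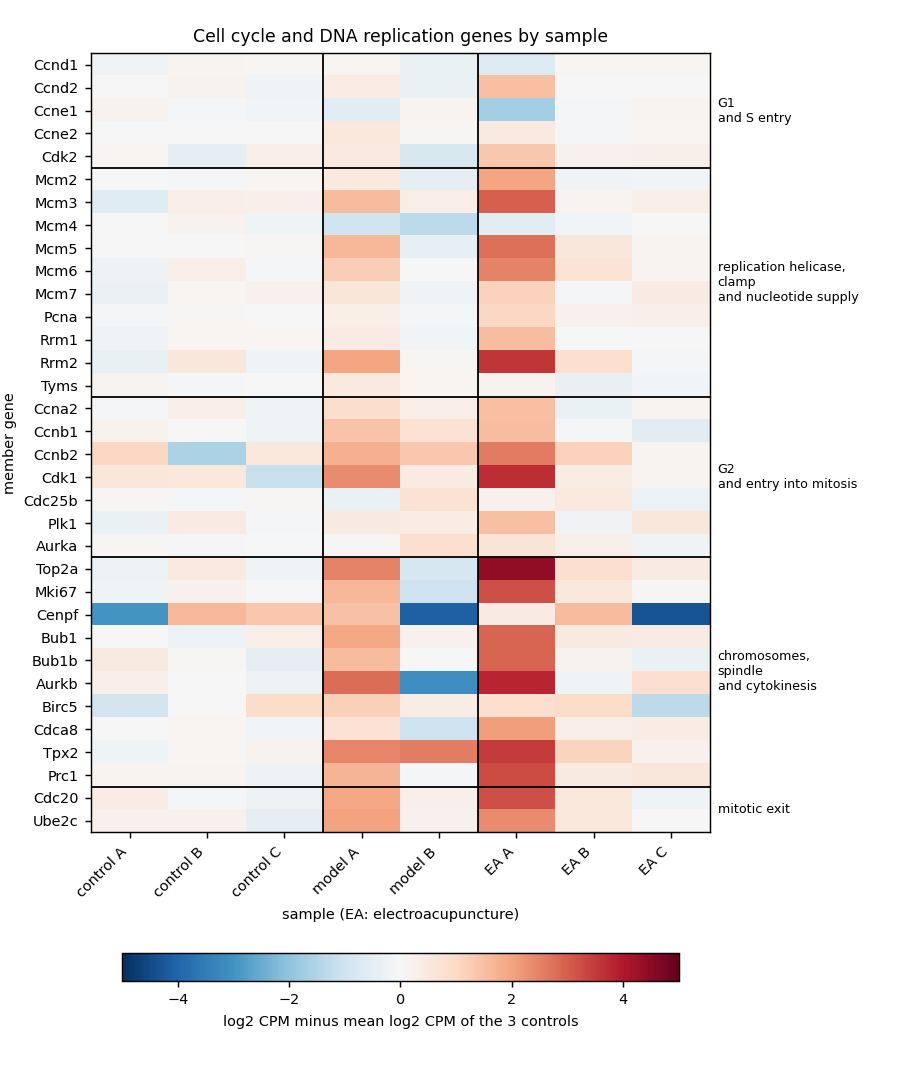
Level of each of the 34 members (rows, grouped by role) in each of the 8 samples (columns), as log2 CPM minus the mean log2 CPM of the 3 controls. The columns of electroacupuncture A and model A are red for most members, while Mcm4, Ccne1, Ccnd1, Cenpf and Aurka depart from that order.

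Genes of chromosome structure, the spindle and cytokinesis showed the widest range. Top2a, the topoisomerase that untangles replicated chromosomes, gave 1.19, 2.16 and 1.28 CPM across controls (samples A to C in order, here and below), 9.06 and 0.766 CPM across model samples and 35.7, 2.81 and 2.00 CPM across electroacupuncture samples. Electroacupuncture A was thus 23.1 times the control mean, and model B was below every control. Mki67, the proliferation antigen that coats mitotic chromosomes, gave 4.77, 6.37 and 5.31 CPM across controls, 17.4 and 2.57 CPM across model samples and 52.7, 7.95 and 5.69 CPM across electroacupuncture samples. Here too the model samples lay on either side of the controls. Prc1, which bundles microtubules for cytokinesis, gave 4.03, 4.09 and 3.02 CPM across controls, 12.4 and 3.45 CPM across model samples and 37.0, 5.06 and 5.59 CPM across electroacupuncture samples. All electroacupuncture samples were above all controls for Prc1, by a wide margin only in sample A.

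Of other genes of this role, Cdca8, Aurkb, Bub1 and Bub1b were also highest in electroacupuncture A and second in model A, and Birc5 was not. Cdca8, a subunit of the chromosomal passenger complex, gave 1.65, 1.71 and 1.47 CPM across controls, 2.73 and 0.712 CPM across model samples and 7.29, 2.04 and 2.11 CPM across electroacupuncture samples. Aurkb, the kinase of that complex, stood at 21.3 CPM for model A and 0.219 CPM for model B. Controls were at 3.57, 2.96 and 2.47 CPM, and electroacupuncture samples at 43.7, 2.64 and 5.48 CPM. Aurkb thus lay far above the controls in 1 model sample and far below them in the other. Its level in model B rests on 4 counts. Bub1 and Bub1b, kinases of the spindle checkpoint, reached 10.6 and 4.16 CPM in electroacupuncture A and 5.30 and 1.61 CPM in model A, and stayed at or under 1.83 and 0.642 CPM in the other samples. Birc5, or survivin, varied among the controls themselves, from 1.01 to 4.03 CPM, and its other samples (0.738 to 4.88 CPM) spread about that range.

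**Figure D2:**
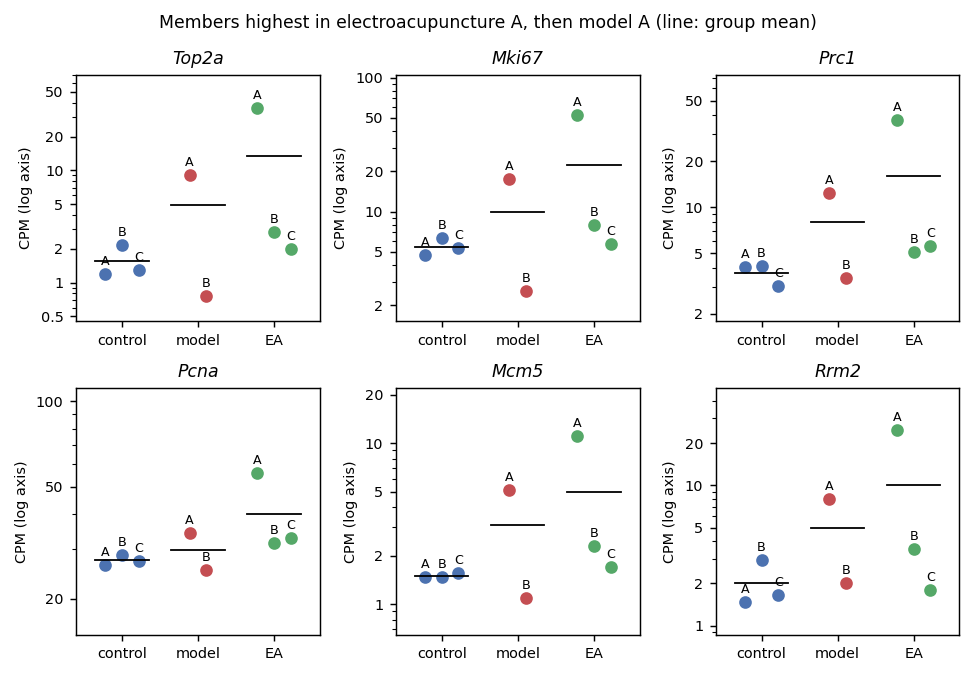
CPM on a log axis in each sample (points, lettered) with group means (lines) for 6 members. In every panel electroacupuncture A is the highest sample and model A the second, and the other 6 samples are lower, for Top2a from 0.766 to 2.81 CPM.

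Genes of G2 and of entry into mitosis included the 2 B cyclins, which bind Cdk1 to start mitosis. Ccnb1 gave 5.68, 5.00 and 4.31 CPM across controls, 13.6 and 8.38 CPM across model samples and 14.8, 4.76 and 3.37 CPM across electroacupuncture samples. Both model samples lay above every control, while electroacupuncture B and C lay at the control level or below it. Cdk1 was scarce, at 1.19, 1.14 and 0.275 CPM in controls, and reached 11.3 CPM in electroacupuncture A and 4.39 CPM in model A. Ccnb2 did not exceed 2.43 CPM and had 0 counts in control B. Ccna2, the cyclin of S phase and G2, ranged from 6.96 to 10.345 CPM among controls. Its model samples stood at 15.3 and 10.346 CPM, so model B only just exceeded the highest control, and its electroacupuncture samples at 23.5, 6.46 and 9.07 CPM. Plk1, a kinase of mitotic entry, was 12.9 CPM in electroacupuncture A and between 3.57 and 6.64 CPM elsewhere.

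The remaining pair in this role followed another order. Aurka, a centrosome kinase, gave 25.1, 23.3 and 24.1 CPM across controls, 25.0 and 42.9 CPM across model samples and 38.0, 29.9 and 21.4 CPM across electroacupuncture samples. Its highest sample was model B, in which Top2a and Mki67 were below every control. Cdc25b, a phosphatase that activates Cdk1, was also highest in model B (39.6 CPM), lowest in model A (18.4 CPM) and between 21.7 and 24.6 CPM in controls. At the end of mitosis, Cdc20 and Ube2c direct the destruction of B cyclins. They reached 11.5 and 11.2 CPM in electroacupuncture A and 4.72 and 8.63 CPM in model A, and lay between 0.916 and 3.02 CPM in the other 6 samples.

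Genes of replication and nucleotide supply followed the same sample order in 8 of 10 cases. Pcna, the sliding clamp of DNA polymerase, gave 26.4, 28.5 and 27.3 CPM across controls, 34.2 and 25.4 CPM across model samples and 55.9, 31.6 and 32.9 CPM across electroacupuncture samples. All electroacupuncture samples were above all controls, and the model samples lay on either side. Mcm5, a helicase subunit, gave 1.47, 1.48 and 1.56 CPM across controls, 5.09 and 1.09 CPM across model samples and 11.02, 2.30 and 1.69 CPM across electroacupuncture samples. Mcm2, Mcm3, Mcm6 and Mcm7 were likewise highest in electroacupuncture A, at 2.22 to 8.21 times the control mean. Rrm2, the regulated subunit of ribonucleotide reductase, reached 24.7 CPM there and 7.93 CPM in model A, against 1.47 to 3.53 CPM elsewhere. Its partner Rrm1 reached 46.1 and 20.7 CPM, against 14.0 to 16.8 CPM elsewhere. Tyms, which makes thymidylate, was between 1.57 and 3.00 CPM in all 8 samples.

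Mcm4, another subunit of the same helicase, went the other way. It gave 26.2, 29.4 and 22.4 CPM across controls, 12.8 and 10.5 CPM across model samples and 17.5, 23.6 and 25.5 CPM across electroacupuncture samples. Both model samples lay below every control and every electroacupuncture sample. Electroacupuncture A was the lowest of its group, although it was the highest sample for each of the other 5 subunits. The samples low in Mcm4 were those low in hippocampal markers. The hippocampal genes C1ql2 and Prox1 stood at 0.375 and 6.38 CPM for model A, 0.109 and 3.83 CPM for model B and 5.81 and 9.80 CPM in electroacupuncture A, against 32.1 to 57.3 and 61.1 to 96.0 CPM elsewhere. The part of this difference in Mcm4 was not tested.

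Tpx2, a factor that builds spindle microtubules and activates Aurka, stood high in both model samples, at 5.64 and 6.24 times the control mean. It gave 1.83, 2.27 and 2.47 CPM across controls, 12.4 and 13.7 CPM across model samples and 25.9, 4.89 and 2.53 CPM across electroacupuncture samples. All 5 samples with MCAO/R were above all controls, although electroacupuncture C was so by a narrow margin. Unlike Top2a, Tpx2 was as high in model B as in model A.

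Cenpf, a kinetochore protein of late cell cycle, split the samples without regard to group. It gave 1.56, 41.5 and 33.99 CPM across controls, 37.2 and 0.657 CPM across model samples and 17.9, 40.5 and 0.527 CPM across electroacupuncture samples. Each group held 1 sample at or under 1.56 CPM, and all other samples were at 17.9 CPM or more. The controls alone differed 26.6-fold in Cenpf, and the highest and lowest controls of the other 32 members with counts in every control differed by at most 4.34-fold.

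**Figure D3:**
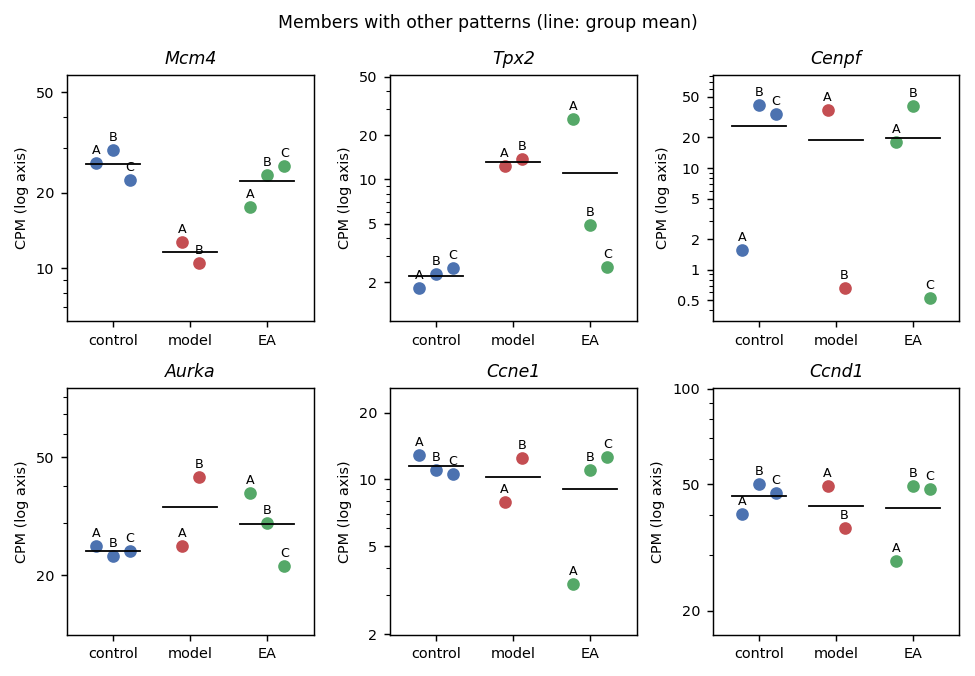
CPM on a log axis in each sample (points, lettered) with group means (lines) for 6 members that depart from the common order. Both model samples are lowest for Mcm4, Tpx2 is high in both model samples, Cenpf is at 0.527 to 1.56 CPM in 1 sample of each group, Aurka is highest in model B, and Ccne1 and Ccnd1 are lowest in electroacupuncture A.

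Genes of G1 and S entry had a median log2 difference from the control mean of 0.37 in model A and 0.47 in electroacupuncture A, against 1.68 and 3.07 for genes of chromosomes and the spindle. Ccnd1, a D cyclin that starts G1 progression, gave 40.3, 50.2 and 47.1 CPM across controls, 49.4 and 36.3 CPM across model samples and 28.6, 49.3 and 48.4 CPM across electroacupuncture samples. Its lowest sample was electroacupuncture A. Ccnd2, a D cyclin of neural progenitors and neurons, gave 11.92, 13.4 and 10.4 CPM across controls, 15.3 and 9.42 CPM across model samples and 33.4, 12.03 and 12.1 CPM across electroacupuncture samples, so that the D cyclins had opposite extremes in the same sample. The E cyclins, partners of Cdk2, differed too. Ccne1 was lowest in electroacupuncture A (3.38 CPM) and in model A (7.93 CPM), against 10.5 to 12.9 CPM in the other samples, whereas Ccne2 was highest in model A (17.5 CPM) and electroacupuncture A (16.9 CPM), against 11.8 to 13.2 CPM. Cdk2 was 12.8 CPM in electroacupuncture A and between 2.79 and 7.13 CPM elsewhere.

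The first comparison set model samples against controls, both of them restrained. Of the 34 members, 29 were higher in estimate and 5 lower, with a median log2 fold change of 0.65 (0.02 over all tested genes, of which 51.5% were higher, or 62.6% when scaled by total counts). No member passed at an adjusted p under 0.05 (edgeR quasi-likelihood test, Benjamini-Hochberg over all genes), as 0.00646% of all genes did. At an unadjusted p under 0.05, 2 members passed, against 13.8% of all genes. Mcm4 was 2.24-fold lower in the model, with a control mean of 26.0 ± 3.55 CPM (SD, n = 3) and a model mean of 11.6 ± 1.62 CPM (SD, n = 2) (log2 fold change -1.16, SE 0.23, edgeR adjusted p = 0.133). Tpx2 was 5.92-fold higher, at 2.19 ± 0.328 and 13.03 ± 0.925 CPM (log2 fold change 2.57, SE 0.86, edgeR adjusted p = 0.261). Ccnb1 measured 5.00 ± 0.688 and 10.97 ± 3.66 CPM (1.13, SE 0.59, edgeR adjusted p = 0.429). The groups did not overlap for 6 members that were higher (18.2% of all genes) and for 1 that was lower (19.6%), or 7 members in all (20.6%) against 37.8% of all genes. The 6 were Ccne2, Ccna2, Ccnb1, Ccnb2, Tpx2 and Ube2c.

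The estimates for most mitotic genes rested on model A. Top2a averaged 1.54 ± 0.535 CPM over controls and 4.91 ± 5.86 CPM over model samples, a log2 fold change of 1.67 (SE 1.39), and without model A its log2 fold change was -0.99. Mki67 had a log2 fold change of 0.87 (SE 1.06), and -1.09 without model A. Without that sample 17 members were higher and 17 lower, with a median of -0.02. Mcm4 and Tpx2 kept their size in every alternative, with log2 fold changes from -1.32 to -1.03 and from 2.45 to 2.68. Mcm4 fell and Tpx2 rose in DESeq2 (adjusted p = 0.000775 and 0.0415), which called 5.11% of all genes. With all columns as separate libraries, edgeR called Mcm4 and 7.37% of all genes. Mcm4 and Tpx2 both passed in edgeR without electroacupuncture A (adjusted p = 0.0214 and 0.0122), a setting that called 565 of 15275 genes. Over all alternatives their adjusted p ran from 0.000775 to 0.455 and from 0.00625 to 0.576. Microglial markers were high in the same model sample as most genes of chromosomes and the spindle. The 14 markers, none at 0, summed to 842 CPM (model A) and 451 CPM (model B), against 290 to 389 CPM in controls. Their part in the result was not tested.

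Electroacupuncture samples were next set against model samples, which had the operation without the treatment. In estimate, 24 members were higher and 10 lower (median log2 fold change 0.50, against 0.03 over all genes, of which 53.4% were higher). No member passed, and 0% of all genes did (edgeR adjusted p under 0.05). At an unadjusted p under 0.05, 1 member passed, against 13.5% of all genes, and DESeq2 called 1 member and 4.51% of all genes. That member was Mcm4 in each case. Mcm4 had a mean of 11.6 ± 1.62 CPM (SD, n = 2) without and 22.2 ± 4.17 CPM (SD, n = 3) with the treatment, a log2 fold change of 0.94 (SE 0.22, edgeR adjusted p = 0.17, and DESeq2 adjusted p = 0.0135). Every electroacupuncture sample was above both model samples for Mcm4, and this was the only member whose groups did not overlap (12.9% of all genes had no overlap and were higher, and 11.7% were lower). Over the alternatives its adjusted p ran from 0.00862 to 0.51.

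Cdca8 had a log2 fold change of 1.14 (SE 0.75, edgeR adjusted p = 0.584) and Pcna 0.43 (SE 0.27, edgeR adjusted p = 0.564), both with overlapping groups. Top2a was at 1.45 (SE 1.40), Mki67 at 1.14 (SE 1.09) and Prc1 at 0.997 (SE 0.94). These estimates turned without electroacupuncture A, to -1.001, -0.53 and -0.57. Without that sample 7 of the 33 members then tested were higher and 26 lower, with a median log2 fold change of -0.53, and with both it and model A left out 19 were higher and 14 lower, with a median of 0.24. The direction of the members as a group in this comparison thus depended on which samples were kept.

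Electroacupuncture against control shares its samples with both comparisons above. Of the 34 members, 29 were higher in estimate, with a median log2 fold change of 0.86 (0.01 over all genes, of which 50.8% were higher, or 62.3% when scaled by total counts). No member passed, 0% of all genes did, and the smallest edgeR adjusted p was 0.843. At an unadjusted p under 0.05, 3 members passed, against 3.66% of all genes, and DESeq2 called 0 members and 0.0054% of all genes. Tpx2 measured 2.19 ± 0.328 CPM (SD, n = 3) in controls and 11.1 ± 12.8 CPM (SD, n = 3) with electroacupuncture (log2 fold change 2.33, SE 0.81). Prc1 measured 3.72 ± 0.601 and 15.9 ± 18.3 CPM (2.09, SE 0.86) and Top2a 1.54 ± 0.535 and 13.5 ± 19.2 CPM (3.13, SE 1.34). The SD in the electroacupuncture group exceeded its mean for all 3. The groups did not overlap for 6 members, all higher (5.98% of all genes), namely Mcm5, Pcna, Bub1, Cdca8, Tpx2 and Prc1. None was lower without overlap (4.88% of all genes). Without electroacupuncture A the median log2 fold change was 0.17, with 26 of 33 members higher.

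**Figure D4:**
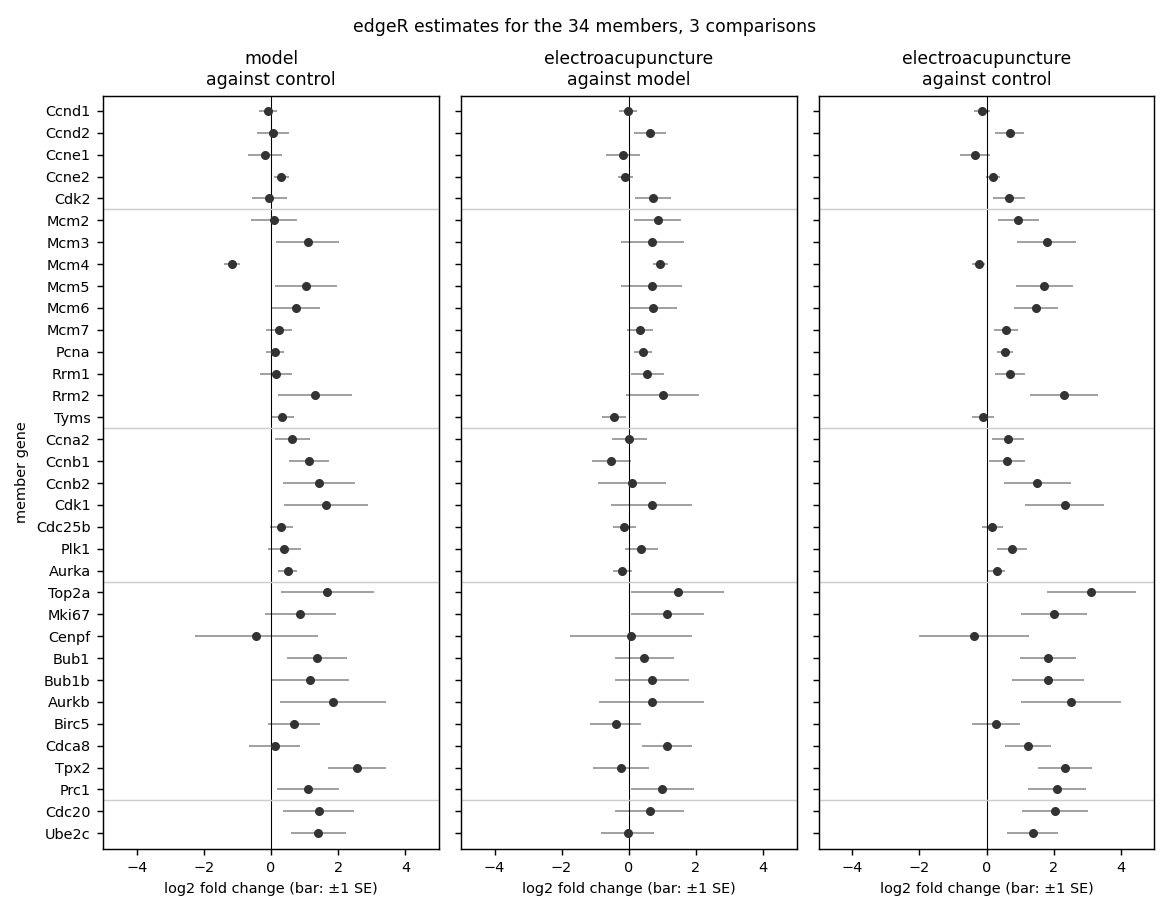
edgeR log2 fold changes (points) with 1 standard error (bars) of the 34 members in the 3 comparisons. Mcm4 is the member with a narrow bar away from 0 in the first 2 panels (-1.16 and 0.94), while mitotic genes such as Top2a (SE 1.39, 1.40 and 1.34) have wide bars.

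Other genes of the pathway were read from lists chosen by name. Of 54 tested genes of mitosis (59 listed), 0 passed in any of the 3 edgeR comparisons. In 44 of the 54 electroacupuncture A was the highest sample, and in 39 model A was second. Their median log2 fold change was 0.93 in model against control (47 higher in estimate), 0.56 in electroacupuncture against model (40 higher) and 1.46 in electroacupuncture against control (50 higher). Stmn1, which destabilizes microtubules and is also made in neurons, gave 350, 562 and 540 CPM across controls, 946 and 989 CPM across model samples and 474, 614 and 599 CPM across electroacupuncture samples. Incenp, the scaffold of the chromosomal passenger complex, measured 16.9 to 19.1 CPM among controls, 27.3 and 29.1 CPM for the model samples and 15.5 to 22.7 CPM with electroacupuncture. For both genes the model samples lay above all others. Cit, a kinase of cytokinesis, was highest in model B (106 CPM), followed by electroacupuncture A (62.7 CPM) and model A (54.0 CPM), against 18.1 to 30.2 CPM elsewhere. Anln, a cytokinesis protein that oligodendrocytes also make, was lower in the model samples (39.9 and 16.0 CPM) and electroacupuncture A (35.8 CPM) than in the other 5 (58.9 to 99.9 CPM).

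Among 41 tested genes of DNA replication (42 listed), 0 passed in any comparison, 20 were highest in electroacupuncture A, and the median log2 fold changes were 0.07, 0.20 and 0.15 in the 3 comparisons as above. Cdc6, which loads the Mcm helicase, had its highest value in model A (21.6 CPM), with 7.94 CPM for model B, 3.02 to 8.75 CPM in controls and 1.96 to 7.81 CPM with electroacupuncture. Rnaseh2a, a nuclease that removes RNA from DNA, measured 42.1 to 53.7 CPM among controls and 65.5 and 61.4 CPM for the model samples. The origin recognition gene Orc2 measured 27.2 and 22.1 CPM in the model, below the other 6 samples (29.0 to 36.2 CPM). Cyclin-dependent kinase inhibitors and other brakes (17 tested of 20 listed) and E2F factors with other cyclins and kinases (18 of 18) also had 0 calls, with median log2 fold changes of -0.04 and -0.18 in model against control and 0.12 and 0.31 in electroacupuncture against model. Cdk6, the kinase partner of D cyclins, measured 2.47 to 2.84 CPM among controls, 10.2 and 6.08 CPM for the model samples and 7.89, 2.21 and 2.43 CPM with electroacupuncture.

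Markers of cell types that can divide were set beside the members, sample by sample. Microglial and macrophage markers summed to 1131 CPM in electroacupuncture A, 422 and 386 CPM in electroacupuncture B and C, and to the values given above in the other groups. For 10 of these 14 genes electroacupuncture A was highest and model A second, as for most mitotic members. Trem2, a microglial receptor, stood at 73.2 CPM for electroacupuncture A, 48.7 and 23.9 CPM for the model samples and 10.9 to 18.5 CPM in the other 5 samples. Leukocyte markers (12 of 13 in the table, 6 tested) went both ways. Their sum was 202 CPM in model A and 213 CPM in electroacupuncture A, against 67.4 to 93.7 CPM elsewhere, and was made up largely of Lyz2 and Cd4, which macrophages also express. Cd4 stood at 79.8 and 81.5 CPM in these samples, against 7.24 to 14.7 CPM. The T cell gene Cd3e was instead lowest in model A (0.0536 CPM), model B (0.219 CPM) and electroacupuncture A (0.954 CPM), against 6.84 to 29.4 CPM, and the B cell gene Ms4a1 had 0 counts in 4 samples. Of the 6 tested genes, 3 had electroacupuncture A highest and model A second. Markers of neural progenitors and newborn neurons (13 of 13, none at 0) had a median log2 difference from the control mean of 1.13 in model A and 0.61 in electroacupuncture A, against -0.33 to 0.08 elsewhere. Their sum, of which the abundant neuronal gene Tubb3 made up 323 to 557 CPM, was 1150 CPM in model A and 735 CPM in electroacupuncture A, against 566 to 814 CPM. Dcx, a microtubule protein of newborn neurons, stood at 74.1 CPM in model A and 66.7 CPM in electroacupuncture A, against 18.8 to 24.7 CPM. Igfbpl1, another gene of that list, stood at 36.9 and 24.8 CPM, against 0.383 to 5.32 CPM. Dlx1 and Dlx2, transcription factors of interneuron progenitors that were on no list, reached 122 and 22.6 CPM in electroacupuncture A and 90.8 and 6.48 CPM in model A, against 11.8 to 21.7 and 0.114 to 0.657 CPM. Dcx, Igfbpl1, Dlx1 and Dlx2 were chosen after their values were seen, and were high in the samples in which most members were high. Prox1 of the same list was low in both, as given above, and Neurog2 was at 0.214 and 0.173 CPM, against 0.164 to 1.62 CPM. Oligodendrocyte precursor markers (8 of 8, none at 0) did not follow the members: they summed to 639 to 712 CPM with electroacupuncture, 452 to 469 CPM in the model and 475 to 609 CPM in controls. Endothelial markers (6 of 7 in the table, none at 0) summed to 310 CPM in electroacupuncture A but to 102 CPM in model A, against 100.04 to 213 CPM elsewhere. Astrocyte markers (7 of 7, none at 0) summed to 4198 CPM in model A and 4117 CPM in electroacupuncture A, against 2075 to 3388 CPM elsewhere. Their median log2 difference from the control mean was 0.50 and 0.37, against -0.02 to 0.23. For 2 of these 7 genes electroacupuncture A was highest and model A second. The part of each cell type in the members' levels was not tested.

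**Figure D5:**
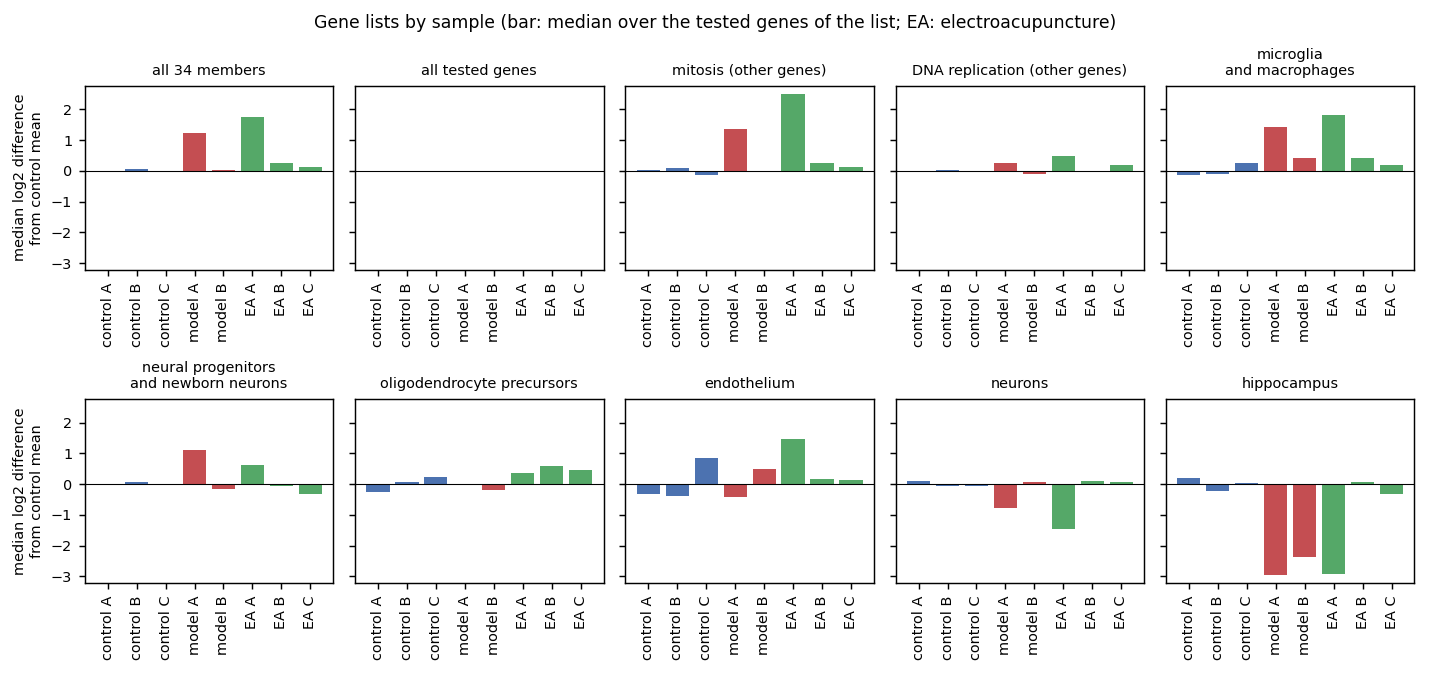
Median log2 difference from the control mean over the tested genes of each list (bars, 1 per sample). The 34 members, other genes of mitosis and microglial markers are high in model A (1.22, 1.37 and 1.42) and electroacupuncture A (1.77, 2.499 and 1.83), oligodendrocyte precursor markers are not, and hippocampal markers are low in electroacupuncture A and both model samples.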

How the data were processed

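Poly(A)-selected RNA from rat brain tissue was sequenced in both directions after strand marking, as the labels' protocols state. The deposited table gives expected counts (estimated read counts per gene, without normalization) in 11 columns, with totals from 8668140 to 11920744 and 70.5% to 72.1% whole values. The tools DESeq2 1.16.1, featureCounts 1.5.0-p3, HISAT2 2.0.5 and StringTie 1.3.3b are named, per the submitters' processing notes. The sources used here do not give their roles, the genome build, any use of the molecular identifiers or the treatment of reads shared by near-identical genes. Column names gave the group but not the sample.

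The 4 symbols on 2 rows were summed, and values were rounded to whole numbers. Columns of a group that differed by under 2 times the sampling variance (genes with at least 20 counts in the pair) were summed. All 8 samples entered 1 fit in edgeR 4.0.16 (R 4.3.3; TMM scaling, default filter, two-sided quasi-likelihood test, 5 residual degrees of freedom, common biological coefficient of variation 36.8%), which was tested on simulated data. A gene was called where its p, adjusted by Benjamini-Hochberg over all genes, was under 0.05. SE were derived from the F statistic. CPM carry TMM scaling, and log2 levels a prior count of 2. Genes near 1 CPM rest on few counts, so counting error matters for them.

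The members and lists were chosen with earlier results of these data known. Values are given for every member, and sample by sample for those with the 3 smallest p in a comparison, for Top2a, Mki67, Pcna, Ccnd1 and Ccnd2, and for some others chosen after their values were seen. From other lists, genes were taken from the 3 with the smallest p. Alternatives were all columns as separate libraries, RLE size factors, total counts, DESeq2 1.42.0, no or a stricter filter (at least 1 CPM in 2 samples), the 2 groups compared alone, each sample left out, and, added after the data were seen, model A and electroacupuncture A both left out.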

Additional observations from a re-analysis of the deposited data

How the results depend on the processing

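No paired analysis was possible because the numbers in the column names could not be tied to the numbers of the labelled samples. Counts of calls depended on the samples and the tool. In model against control, 1 gene was called, 1129 with all columns as separate libraries, 799 by DESeq2, 294 with the 2 groups alone, 0 with total counts, 0 to 565 with 1 sample left out and 1333 without model A and electroacupuncture A. Members called were 0, then 1 with all columns (2.94%, against 7.37% of all genes) and 2 by DESeq2 (5.88% against 5.11%). They numbered 1 of 33 with the 2 groups alone, 0 with total counts, and 0 to 2 with 1 sample left out. The 2 were out of 33, without electroacupuncture A. In electroacupuncture against model, 0 genes and 0 members were called, against 1666 and 1 with all columns, 705 and 1 by DESeq2, 0 to 308 and 0 to 1 with 1 sample left out, and 1104 and 3 without both samples. In electroacupuncture against control, 0 genes were called, and 1 by DESeq2. Outside the fits without both samples, the members called were Mcm4 and Tpx2. In those fits Aurkb was called besides these, in model against control and in electroacupuncture against model. Model B was then the only model sample, and its Aurkb level rests on 4 counts.

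Members with no overlap in model against control numbered 7 (20.6%, against 37.8% of all genes), 3 with all columns (8.82% against 30%), 11 with total counts (32.4% against 38.4%), 21 without both samples (63.6% against 66.4%), and 8 (23.5% against 37.8%) to 31 (91.2% against 71.8%) with 1 sample left out. In electroacupuncture against model they numbered 1 (2.94% against 24.6%), 25 without both samples (75.8% against 75.6%), and 1 to 17 (50% against 52.8%) with 1 left out. In electroacupuncture against control they numbered 6 (17.6% against 10.9%), and 6 to 15 (44.1% against 31.1%) with 1 left out. Fewer samples make separation easier by construction.

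Leaving out 1 sample turned the direction of several log2 fold changes. In model against control the ranges were -0.34 to 0.10 for Ccnd1, -0.34 to 0.36 for Ccnd2, -0.11 to 0.31 for Pcna, -0.99 to 2.55 for Top2a, -1.09 to 1.66 for Mki67, -1.17 to 0.76 for Cdca8 and -0.11 to 1.74 for Prc1. In electroacupuncture against model they were -0.22 to 0.21 for Ccnd1, -0.0281 to 1.02 for Ccnd2, -1.001 to 4.11 for Top2a, -0.53 to 3.09 for Mki67, -0.57 to 2.19 for Prc1 and -1.78 to 0.23 for Tpx2. In electroacupuncture against control they were -0.25 to 0.0913 for Ccnd1 and -0.28 to 0.97 for Ccnb1. Without both samples, model against control gave -0.34 for Ccnd2, -0.11 for Pcna, -0.99 for Top2a, -1.09 for Mki67, -1.16 for Cdca8 and -0.11 for Prc1. Ccnd1 stood at 0.43 in electroacupuncture against model and 0.0921 in electroacupuncture against control, and Ccnb1 at -0.28 in the latter. Ccnd1 was 0.0198 in model against control with total counts, and 0.0361 in electroacupuncture against model with all columns. The causes were not tested. Total counts moved the median of all genes to 0.13 in model against control, from 0.02. A model group of 1 sample is assumed to vary like the other groups. Of 480 log2 fold changes of single members under an alternative, 438 kept their direction and side of the threshold.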

Other observations

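The on-off pattern of Cenpf was shared by other genes. By Pearson correlation of log2 CPM over the 8 samples, among 14810 other genes averaging 1 CPM or more, those most like Cenpf included LOC684828 (r = 0.95), Pax6 (0.95) and Kifc1 (0.94), given as a description. They were chosen by these values, and the samples share depth and composition differences. Pax6, a transcription factor of neural progenitors and some neurons, gave 7.79, 166 and 142 CPM across controls (samples A to C in order), 164 and 9.14 CPM across model samples and 25.9, 143 and 7.49 CPM across electroacupuncture samples. Kifc1, a kinesin of mitosis, gave 1.19, 7.84 and 7.79 CPM across controls, 6.70 and 1.64 CPM across model samples and 8.76, 6.29 and 1.48 CPM across electroacupuncture samples. For each of these 3 genes, control A, model B and electroacupuncture C were the 3 lowest samples.

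A brake on division, Btg1, split the samples in another way, with 88.0, 0.341 and 0.366 CPM across controls, 1.13 and 0.438 CPM across model samples and 102, 0.510 and 73.6 CPM across electroacupuncture samples. The genes most like Top2a by the same measure included 2 other members, Mki67 (r = 0.99) and Mcm5 (0.99), besides Tcf19 (0.99) and the thyrotropin receptor gene Tshr (0.99). Tcf19 measured 9.54 CPM in electroacupuncture A, 5.79 CPM in model A and 3.34 to 4.46 CPM in the other samples.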
